A study of Mus musculus with 3 samples.

Results

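Sfi1 was examined here through every single-base substitution that the exonic variant table assigns to it. All 56 entries named Sfi1 were kept, at 56 positions of 11633 in the whole table, which holds substitutions in 2200 genes. The gene was chosen by its read depth in this table, which is far above that of almost all other genes, so depth is described here and not tested. Genomic DNA from 3 mouse embryonic stem cell lines was sequenced with Illumina libraries, 1 library per line. The lines served to make mouse models of myotonic dystrophy type 1, a muscle-wasting disorder with many affected organs, by injection of haploid cells into oocytes. For each position the table gives a genotype and the numbers of all reads, of reads with the reference base and of reads with the alternate base in each line.

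The 3 lines are androgenetic haploid cells, which carry only a chromosome set from a sperm, on the C57BL/6 background, and were grown in 2i/Lif medium. All of them lack the H19 DMR and the IG DMR, the control regions of imprinted genes that were deleted to let such cells take the place of sperm. The parental line, O48, is labelled WT and was sequenced at passage 40. The line labelled DSM carries knockouts of Dmpk, Six5 and Mbnl1, and was sequenced at passage 60. The line labelled DSMD carries a knockout of Dmwd in addition to these and was sequenced at passage 70. DSM was derived from O48 with Cas9 by way of a Dmpk mutant line, in which Six5 and Mbnl1 were then disrupted, and DSMD was derived from DSM. Lines were grown up from picked clones of single cells at the editing steps, and the Dmpk mutant line in between was not analysed here. The table holds substitutions only, and the knockouts themselves were not checked here. Passage, clone and genotype change together between the lines and cannot be told apart.

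SFI1 is a long helical protein of the centrosome. Its repeats bind centrins, small calcium-binding proteins, and in budding yeast Sfi1 forms the half-bridge on which a new spindle pole body is built. In mammalian cells the protein sits at centrioles and takes part in their duplication and in cilium assembly. Centrosomes organise the mitotic spindle, so the gene is used by dividing cells in general and not only by stem cells.

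In the RefSeq annotation of GRCm38.p6, Sfi1 lies on the minus strand at chr11:3131850-3203347. The table's transcript has the exon numbers of a RefSeq transcript of 33 exons and 4165 bp that encodes 1216 amino acids. The exon number was the same at 56 of 56 positions, the reference base at 56 of 56, and the amino acid change at 51 of 51 coding positions. The transcript was chosen among those annotated for Sfi1 by these matches in exon and amino acid, which are therefore no independent check. RefSeq also lists Sfi1 transcripts for shorter proteins, such as 791, 763 and 738 amino acids. In these, 0 of the 51 changes were the same. The substitutions fell in 28 of the 33 exons. Exons 8, 15, 20, 21 and 31 held none, and exons 13 and 18 held the most, with 4 each. This came to 13.4 substitutions per kb of exon.

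The substitutions on which the results turn are shown here as 27 bases of GRCm38.p6 on the strand of the transcript, so that a reader can see what changes in the codon. The affected codon is in capitals. Each pair gives the reference codon and the codon with the table's alternate base. The first 2 pairs are the stop gains, and the other 3 are the coding substitutions that differed between lines. They lie at chr11:3179417-3179443 for W115*, chr11:3136622-3136648 for W803*, chr11:3187295-3187321 for S42R, chr11:3164661-3164687 for R245G and chr11:3145279-3145305 for L501, whose change is synonymous.
W115* reference: tcccagagggagTGGaagctctgtgtc
W115* alternate: tcccagagggagTAGaagctctgtgtc
W803* reference: tgcttctgccagTGGaggaagcaggtg
W803* alternate: tgcttctgccagTAGaggaagcaggtg
S42R reference: agccatctagaAGCtgccactctatat
S42R alternate: agccatctagaAGAtgccactctatat
R245G reference: tctaattagccagCGAgataggaggaa
R245G alternate: tctaattagccagGGAgataggaggaa
L501 reference: aagtatttgctCTCtggaggcagaaga
L501 alternate: aagtatttgctCTTtggaggcagaaga

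Every Sfi1 position was covered by many times more reads than the median chromosome 11 site. In O48 the depth at the 56 positions ran from 755 to 1285 reads, with a median of 1035.5. In DSM it ran from 822 to 1227 with a median of 1067, and in DSMD from 781 to 1169 with a median of 987.5. The lowest Sfi1 position in any line thus still had 755 reads. The level of 1 copy was taken from chromosome 11 sites outside Sfi1 whose alternate base made up at least 80% of the reads, that is, sites where nearly all reads differ from the reference. Their median depth was 32 reads in O48 (1250 sites, quartiles 26 and 38), 32 in DSM (1257 sites, quartiles 26 and 38) and 31 in DSMD (1253 sites, quartiles 26 and 37).

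The ratio of these medians gave an implied copy number of 32.4 per chromosome 11 in O48, 33.3 in DSM and 31.9 in DSMD. For a read count equal to the Sfi1 median, exact Poisson intervals (95%) were 30.4 to 34.4, 31.4 to 35.4 and 29.9 to 33.9 copies. These counting intervals take the chromosome 11 median as exact. They overlap between the lines, which is no measure of whether the lines agree. The spread between positions was much wider than these intervals: single positions implied 23.6 to 40.2 copies in O48, 25.7 to 38.3 in DSM and 25.2 to 37.7 in DSMD. These intervals cover counting error only, and reads from polymerase duplicates are not independent molecules. The number counts every sequence whose reads were placed on Sfi1, in whatever part of the genome it lies.

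**Figure D1:**
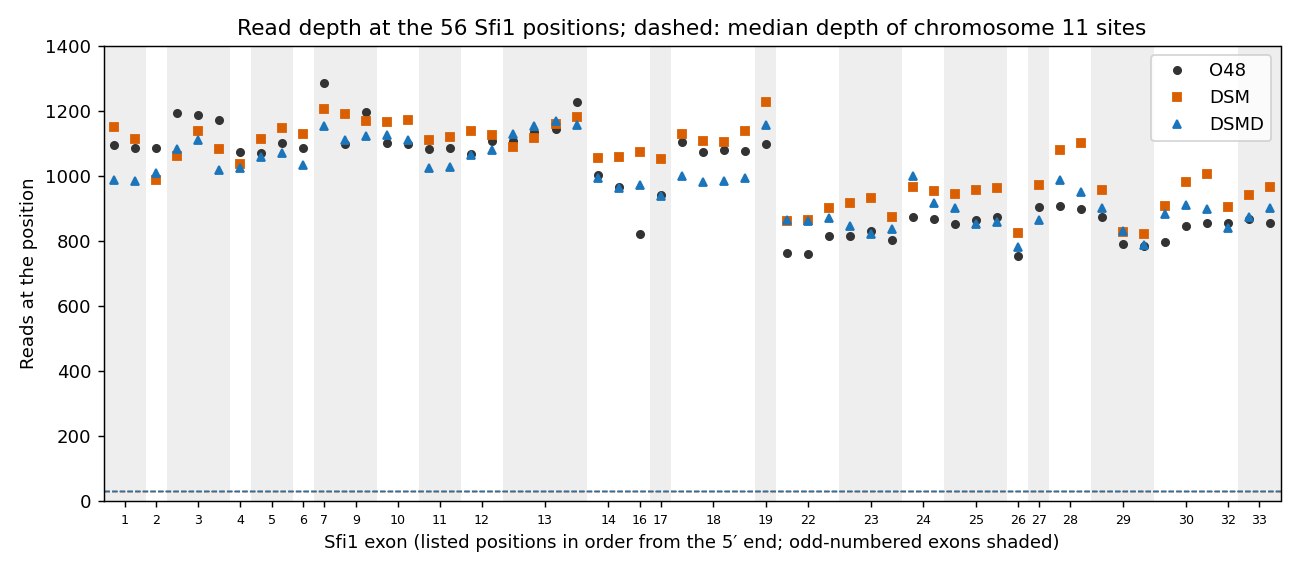
Reads at each of the 56 Sfi1 positions (y axis, linear from 0) in the order of the exons from the 5′ end (x axis), with 1 symbol per line and a dashed line at each line's median depth over chromosome 11 sites with an alternate share of at least 80%. All points lie between 755 and 1285 reads, the dashed lines lie at 31 and 32 reads, and the points from exon 22 on are lower than most of those before.

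Depth was not even along the gene. Exons 1 to 19 had a median of 1097 reads in O48, 1123 in DSM and 1047.5 in DSMD over 32 positions. Exons 22 to 33 had a median of 853.5, 944.5 and 869 reads over 24 positions, which was 22.2%, 15.9% and 17.0% lower. The border was chosen after the depths were seen, so this step is a description. In DSM and in DSMD, 21 of the 24 later positions lay below the lowest of the earlier ones, and in O48 9 of 24 did, because L501 in exon 16 had only 823 reads there. In copies, the earlier exons stood at 34.3, 35.1 and 33.8 and the later ones at 26.7, 29.5 and 28.0. The GC content of the 151 bp around the positions had a median of 52.3% in the earlier exons and of 57.3% in the later ones, and its part in the step was not tested.

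The deepest positions in O48 were R192S in exon 7 with 1285 reads (1206 in DSM, 1155 in DSMD), Y424H in exon 13 with 1228 (1183, 1157) and A251 in exon 9 with 1196 (1170, 1123). The shallowest were A885T in exon 26 with 755 reads (826, 781) and the neighbouring bases of V698I with 760 (864, 862) and L697 with 765 (861, 866) in exon 22. The deepest positions of O48 were thus also above the median of Sfi1 in the other lines, and the shallowest were below it. Scaled to chromosome 11, depth in DSM over that in O48 had a median of 1.06 over the 56 positions and lay above 1 at 46 of them. The excess was larger in the later exons, where the ratio was 1.05 to 1.23 and above 1 at 24 of 24 positions, than in exons 1 to 19, where its median was 1.03. DSMD over O48 had a median of 1.03 and DSMD over DSM of 0.97. These ratios also depend on the sites used for scaling, whose medians are whole reads. The implied copies were 32.36 in O48, 33.34 in DSM and 31.85 in DSMD. With only sites where nearly all reads differed from the reference in every line, they were 32.36, 32.33 and 30.86. DSM then no longer exceeded O48 in implied copies. With sites of chromosomes 1 to 19, the implied copies were 33.40, 34.42 and 32.92. The ratios at single positions were not recomputed. With 1 library per line, the depth ratios have no replicate check.

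Most positions were nearly, but not entirely, of the alternate base. The alternate share, the alternate reads in percent of reference and alternate reads, was at least 80% in all lines at 45 of 56 positions. Over these 45 it had a median of 97.0% in O48, 97.2% in DSM and 97.0% in DSMD, and a full range of 89.8% to 98.1%. No Sfi1 position reached 100% in any line. At 2 positions the share was in between, and at 9 it was below 20% in all lines.

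The reference base at the 45 positions was seen at about the depth of 1 copy. Their reference reads had a median of 30 in each of the lines, against single-copy depths of 32, 32 and 31. At 38 of the 45, the reference reads amounted to less than 1.5 copies in every line, and ran from 19 to 39 in O48, from 18 to 40 in DSM and from 17 to 44 in DSMD. Expressed in copies, their medians were 0.91, 0.91 and 0.87. The limit of 1.5 copies was set after the counts were seen.

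The other 7 high-share positions carried more reference reads. The largest numbers were at R582 in exon 18, with 91 reference reads of 1105 in O48, 89 of 1130 in DSM and 101 of 999 in DSMD. E1110G had 87, 80 and 92 reference reads and Q1098H, in the same exon 30, had 81, 72 and 75. These 3 positions came to between 2.25 and 3.26 copies of the reference base. At W803* the reference reads were 53, 60 and 43, and at L697, V698I and R711Q they passed 1.5 copies in DSMD only.

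**Figure D2:**
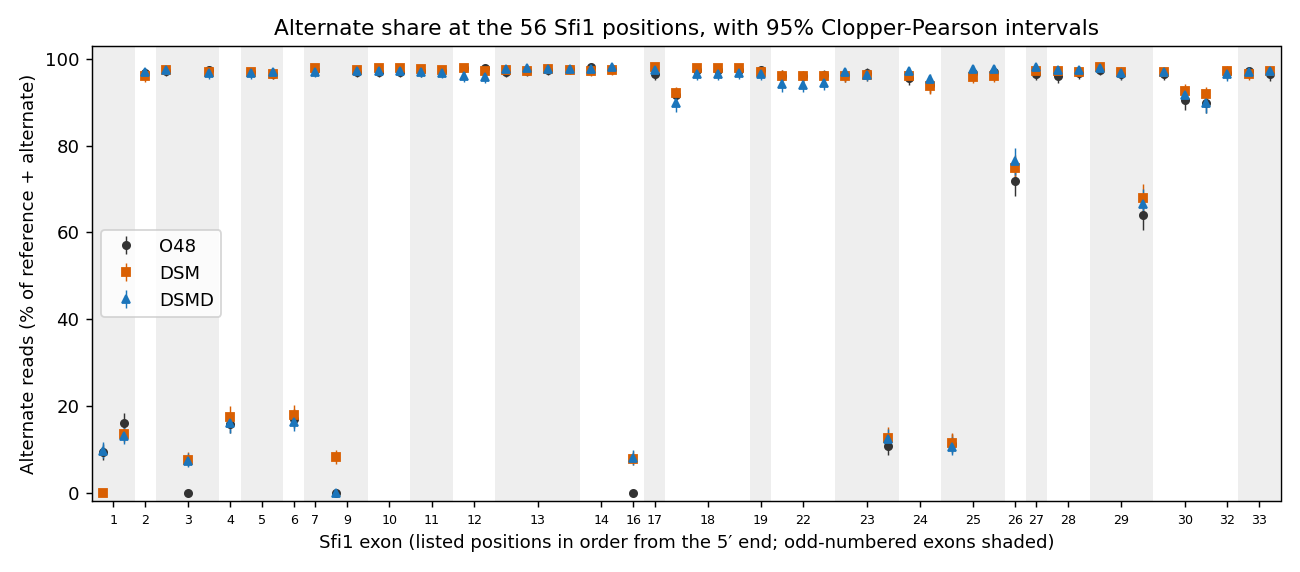
Alternate reads in percent of reference and alternate reads (y axis) at each of the 56 Sfi1 positions in exon order (x axis), with 1 symbol per line and bars for the 95% Clopper-Pearson interval. Of the 56 positions, 45 lie between 89.8% and 98.1%, 2 lie between 64.1% and 76.4%, and 9 lie below 18%.

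The 2 positions in between were A885T and A1067V. The alternate share of A885T was 71.8% in O48, 74.9% in DSM and 76.4% in DSMD, and its reference reads (213, 207 and 184) came to 6.66, 6.47 and 5.94 copies. A1067V had a share of 64.1%, 68.0% and 66.7%, with 282, 262 and 263 reference reads, or 8.81, 8.19 and 8.48 copies. H1066R, which lies 3 bp from it in the preceding codon, had 27, 25 and 26 reference reads. Within 3 bp, then, reference reads of less than 1 copy stood beside those of more than 8.

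The 9 low-share positions were the reverse, with the alternate base in a few copies' worth of reads. R145W had 185 alternate reads in O48, 202 in DSM and 170 in DSMD, which is 17.1%, 17.9% and 16.4%. T84I was at 15.9%, 17.4% and 16.0%, and the exon 1 substitution G3193409C, upstream of the start codon, at 16.0%, 13.6% and 13.2%. R779K was at 10.8%, 12.7% and 12.3% and R810W at 11.2%, 11.5% and 10.7%. These 5 were seen in all lines, and none of them differed between lines by the test described further on. The remaining 4, G3193443A, S42R, R245G and L501, had no alternate read in at least 1 line.

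**Figure D3:**
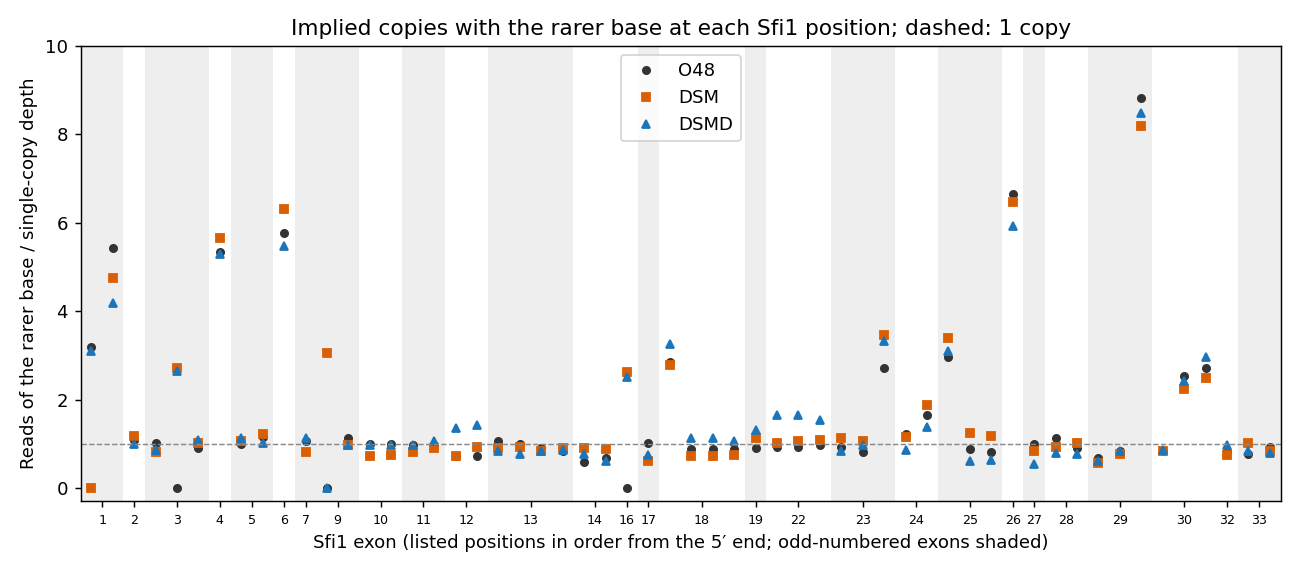
Reads of the rarer base at each Sfi1 position, reference or alternate, divided by the line's single-copy depth (y axis, implied copies), in exon order (x axis), with 1 symbol per line and a dashed line at 1 copy. At 38 positions the rarer base is the reference at 0.55 to 1.42 copies, and the highest values, 8.19 to 8.81, are those of A1067V.

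Of the effects on the protein, 34 of 56 substitutions (60.7%) were nonsynonymous, against 33.8% of the 11650 substitutions of the whole table. Another 15 were synonymous (26.8%, against 23.1%) and 2 gained a stop (3.57%, against 1.17%). Of the rest, 2 lay before the coding part and 2 after it, and 1 in exon 1, G3193443A, was annotated as creating a new upstream start codon. In the whole table, 32.8% of the substitutions lay after the coding part and 6.62% before it, against 3.57% each in Sfi1. The percentages are over all substitutions, so they also reflect how few of those of Sfi1 lie outside the coding part. Of the 34 nonsynonymous substitutions, 26 were of high share. Arginine was lost in 10 of the 34 and gained in 6, and 3 turned arginine into tryptophan. No start loss and no splice-site change was listed.

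Both stop gains were of high share in every line. Their place in the protein is given for the transcript that encodes 1216 amino acids. W115* in exon 5, which would leave 9.38% of the protein before the stop, had 37 reference reads of 1101 in O48, 39 of 1149 in DSM and 32 of 1071 in DSMD. Its alternate share was 96.6%, 96.6% and 97.0%. W803* in exon 24, with 66.0% of the protein before the stop, had 53 of 867, 60 of 953 and 43 of 918 reference reads and a share of 93.9%, 93.7% and 95.3%. Reads without the stop thus came to between 1.03 and 1.22 copies at W115* and between 1.39 and 1.88 copies at W803*. The table types both as homozygous in all lines, while 30 or more reads at each of them had the tryptophan codon's base.

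The nonsynonymous changes of highest mean share were T1022M (97.8%), Q444R (97.7%), Y424H (97.7%), R434K (97.6%), V412E (97.6%), R291H (97.5%), Q402L (97.5%), A292G (97.4%), T23A (97.4%) and R192S (97.4%). They are spread from exon 3 to exon 29, and their shares in the single lines ran from 97.0% to 98.1%. Codon 349 held 2 substitutions, of which the table names 1 R349H and the other synonymous. With both changes the codon turns from CGC to CAT, which also encodes histidine. The 2 positions had 31, 26 and 30 and 31, 29 and 33 reference reads.

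Transitions, changes within purines or within pyrimidines, made up 44 of the 56 substitutions (78.6%), against 56.8% in the whole table. At 25 of 56 positions either the reference or the alternate base stood in a CpG, the dinucleotide in which cytosine is methylated, and 22 of the 44 transitions were among them. Since 45 of the 56 positions lie within 100 bp of another, many of them can be read by the same fragments, and they are not independent of each other.

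The reference genome holds other copies of Sfi1 sequence. Of 3175 different runs of 31 bases in the Sfi1 exons, 39.1% occur at a single place in GRCm38.p6, and the most frequent occur at 3. An unplaced contig of 114452 bp, a stretch of the mouse genome that has not been assigned to a chromosome, aligned to exons 5 to 33 over 3562 bp with 98.7% identity. A stretch of chromosome 5, at chr5:32720394-32736397, aligned to exons 15 to 33 over 2436 bp with 94.95% identity. The first 4 exons aligned to neither.

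The alternate bases of the high-share positions were those of the contig. Of the 45 high-share positions 42 could be aligned, and at 42 of 42 the contig held the alternate base, both stop gains among them. Of 45 exonic bases that differ between chromosome 11 and the contig, 43 were listed as Sfi1 substitutions in the table, the remaining one of the 43 being A1067V. At the other 6 aligned positions, namely A885T, R145W, R245G, L501, R779K and R810W, the contig held the reference base. The copy on chromosome 5 showed no such match: it held the alternate base at 9 of 25 aligned high-share positions and the reference base at 16. These bases were compared with the reference genome only, and neither the rule nor the depth uses them.

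The table lists entries on 22 chromosomes and 0 elsewhere, and whether the authors' mapping reference held the contig is not given in the sources used here. Its part in the depth was not tested.

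**Figure D4:**
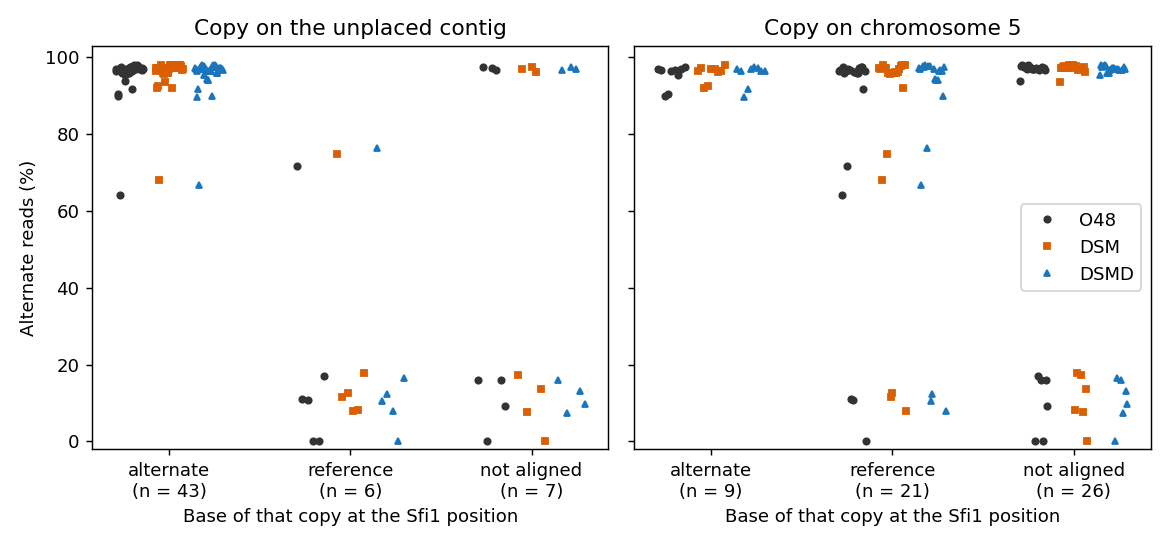
Alternate share at the 56 Sfi1 positions (y axis) sorted by the base that the copy on the unplaced contig (left) or on chromosome 5 (right) holds there (x axis), with 1 symbol per line. On the left, 43 positions with the alternate base lie above 64% and 6 with the reference base below 77%. On the right, high shares occur with both bases.

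The alternate shares were then compared between the lines, which asks whether the listed counts differ between the libraries. Gain or loss of Sfi1 sequence from O48 to DSM to DSMD was not tested, because the counts may also depend on how each line was typed. Each substitution of the table was tested with a two-sided Fisher's exact test on reference and alternate reads, with Benjamini-Hochberg adjustment over the table. Between O48 and DSM, 4 of 56 Sfi1 substitutions differed at an adjusted p under 0.05, against 4.08% of 10979 in the whole table. Outside Sfi1, 11.7% of the 384 substitutions with at least 200 reads in each line were called. Between O48 and DSMD, 2 of 56 differed, against 5.13% of the table and 17.7% of the deep sites. Between DSM and DSMD, 2 of 56 differed, against 4.37% and 13.8%. The share called in Sfi1 (7.14%, 3.57% and 3.57%) was near that of the table and below that of other deep sites. With 1 library per line, the tests compare libraries, and how much cultures of a line vary is not known. The difference between Sfi1 and the other sites was not tested.

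The called substitutions were 4 in all, and at each of them 0 alternate reads were counted in at least 1 line. A position is in the table only if some line was typed with the alternate base, so each of the 4 was listed through the lines where its share is high. A difference at such a position is in part set by the listing. The adjusted p-values describe the counts as listed and are no support for a difference in the DNA of the lines. At L501 the alternate reads were 0 in O48, 84 in DSM and 78 in DSMD. The share rose from 0 to 7.84% in DSM (adjusted p = 3.6e-19, Fisher's exact test) and to 8.02% in DSMD (adjusted p = 5.1e-19, exact). At S42R the alternate reads were 0, 87 and 82, and the share rose to 7.63% (adjusted p = 2.4e-25, exact) and to 7.38% (adjusted p = 6.7e-24, exact). At both, alternate reads were thus counted in DSM and in DSMD, which was derived from DSM, and not in O48.

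The other 2 did not follow the descent of the lines. At R245G the alternate reads were 0 in O48, 98 in DSM and 0 in DSMD, with a share of 8.24% in DSM (adjusted p = 3.0e-26 against O48 and 4.5e-26 against DSMD, exact). At G3193443A, the new upstream start codon of exon 1, they were 102 in O48, 0 in DSM and 96 in DSMD, with shares of 9.32% and 9.71% (adjusted p = 2.8e-30 against O48 and 4.6e-30 against DSMD, exact). At R245G alternate reads were counted in the middle line of the series, and at G3193443A in the first and the last. Both positions were listed only through the lines with alternate reads, so the same limit holds for these adjusted p-values.

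A count of 0 allowed a share of up to 0.252% at S42R, 0.365% at L501 and 0.273% at R245G in O48, of 0.261% at G3193443A in DSM and of 0.27% at R245G in DSMD. The alternate reads where they were present came to 2.52 to 3.19 copies. The reads with 0 belong to reference genotypes, so the counts were set beside those of other deep sites. Outside Sfi1, 37 reference genotypes in O48 had at least 200 reads, of which 21 had 0 alternate reads, and the numbers were 26 of 35 in DSM and 31 of 45 in DSMD. The highest share typed as reference was 10.1%, 9.38% and 9.18%, and the lowest typed as heterozygous was 7.25%, 7.22% and 5.51%. With the lines pooled, the 4 substitutions therefore lay at shares where both kinds of genotype occur in this table. Within DSMD, the 9.71% of G3193443A lay above the highest share typed as reference, 9.18%. Whether the alternate base was missing from the DNA of the lines at 0 or was missed in calling was not tested.

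**Figure D5:**
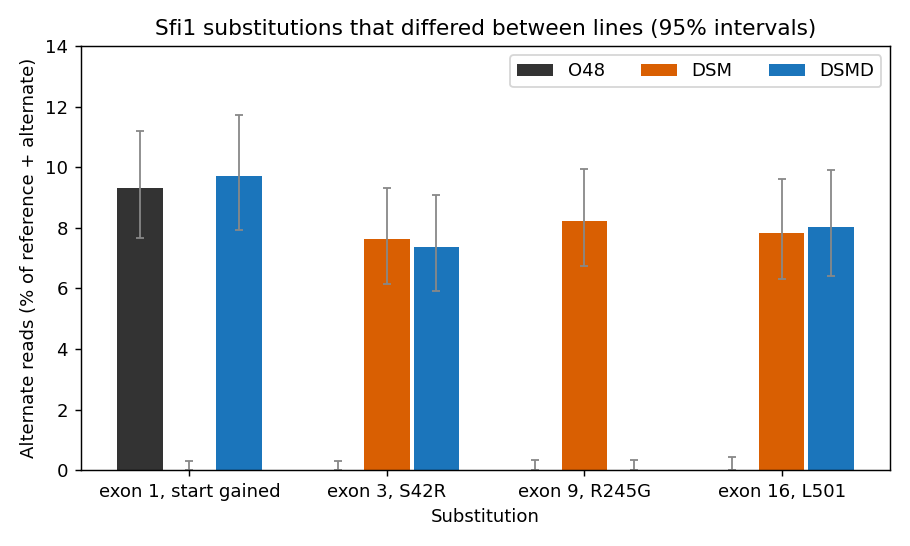
Alternate reads in percent of reference and alternate reads (y axis, from 0) in each line at the 4 Sfi1 substitutions that differed between lines (x axis), with 95% Clopper-Pearson intervals. L501 and S42R have bars in DSM and DSMD, R245G in DSM, and the exon 1 substitution in O48 and DSMD, all between 7.38% and 9.71%.

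Depth at the 4 sites was compared with that at the nearest Sfi1 position that did not differ. At L501 the depth was 823 in O48, 1073 in DSM and 972 in DSMD, and DSM over O48 was 1.30, above the 0.89 to 1.23 of the positions that did not differ. At S571, 480 bp away, the ratio was 1.12. At R245G it was 1.08, beside 0.98 at A251, which lies 20 bp away. At S42R it was 0.96, beside 0.92 at R56, and at G3193443A it was 1.05, beside 1.03 at G3193409C. For DSM over O48, L501 was the only one of the 4 outside that range, with fewer reads in O48 where the alternate base was not seen. DSMD over O48 at L501 was 1.18, above the 0.87 to 1.14 of the positions that did not differ. DSMD over DSM at G3193443A was 0.860, just below the lowest of those positions, 0.863.

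At the positions that were not called, the differences between lines were small. DSM minus O48 ran from -2.38 to 3.97 percentage points over 52 positions with a median of 0.36, and the smallest adjusted p of the exact test was 0.29. DSMD minus O48 ran from -2.82 to 4.65 (smallest adjusted p = 0.11, exact test) and DSMD minus DSM from -2.27 to 1.96 (smallest adjusted p = 0.12, exact test) over 54 positions each. The largest, 4.65 points, was at A885T, whose share was 71.8% in O48 and 76.4% in DSMD. Genotypes gave another picture. They differed between lines at 11 positions, of which 7 were not called, namely Q444R, A591, Q592R, R596W, L697, V698I and Q1098H. Q444R was homozygous alternate in O48 with 22 reference reads and heterozygous in DSM with 28 and in DSMD with 19. At V698I the change of genotype came with 30, 34 and 51 reference reads. In all, 42 positions were typed homozygous alternate in O48, 42 in DSM and 36 in DSMD, and the shares typed heterozygous ran up to 98.0%.

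Next to the 3′ end of Sfi1 lies Pisd-ps1, a transcribed pseudogene of phosphatidylserine decarboxylase, at chr11:3124002-3131945 on the plus strand. The table calls it id178949 and lists 69 positions there, 1 of which, C3131904A, it shares with Sfi1. Within 1 kb of the last Sfi1 position its 18 positions had a median depth of 879.5 reads in O48, 977.5 in DSM and 895 in DSMD, close to the 853.5, 944.5 and 869 of Sfi1 exons 22 to 33. Farther away, at 51 positions, the median was 353, 457 and 437 and the lowest position had 44 reads. Its high-share positions had median reference reads of 25.5, 31 and 32, again about 1 copy. The deep stretch thus runs from Sfi1 into its neighbour and falls off there. The end of the copy on the unplaced contig overlaps an annotated pseudogene, Pisd-ps3, and the end of that on chromosome 5 overlaps Pisd itself.

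At and beyond the 5′ end of Sfi1, the table lists 5 substitutions within 1 Mb, in 2 genes, and none of them was deep. Eif4enif1, whose product binds the cap-binding factor eIF4E, had 2 substitutions with 3 to 7 reads, which lie within the annotated Sfi1 interval but upstream of exon 1 of the transcript used here. Patz1, a zinc-finger regulator of transcription, had 3 with 5 to 10 reads. Both were below the single-copy depth. Other genes there have no listed position, and their depth is not known.

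Among 1042 other genes with at least 3 listed positions, 1 was deeper than Sfi1 in all lines. This was Rn45s, the ribosomal RNA precursor, with medians of 2374 reads in O48, 2468 in DSM and 2513 in DSMD. By the mean absolute log2 ratio of median depths over the 3 lines, the gene nearest to Sfi1 was id178949 (1.07), then Rn45s (1.25), LOC100861755 (1.84), LOC100861702 (2.06) and id7390 (2.12). LOC100861755 had medians of 301, 287 and 278 reads, or 9.41, 8.97 and 8.97 copies. Of 14 genes for centrins and other proteins of the centriole, Cep192 with 15 substitutions and Stil with 8 were the only ones in the table. Their median depths were 33 to 37 reads, the level of 1 copy, and 0 of their 23 substitutions was called between any lines by the exact test. The centrin genes themselves (Cetn1 to Cetn4) had no listed substitution.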

How the data were processed

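The authors deposited 1 table of exonic single-nucleotide variants over the 3 libraries. Its depths, reference reads and alternate reads are deposited counts of reads, without normalization; the alternate counts of sites with several alternates are joined in a cell and were split. The submitters' processing notes list CASAVA 1.8.2, BWA 0.7.12, SAMtools, Picard, GATK and mm10, with no role or order; variant filters and the sequences in the mapping reference are not given in the sources used here.

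Entries were reduced to 1 per position and alternate base with the effect of highest impact. Shares have 95% Clopper-Pearson intervals and a count of 0 the limit of 3 counts. Lines were compared at sites with at least 10 reads in both. Reads at all sites summed to 826150, 839726 and 823382 in O48, DSM and DSMD. Named were all stop, start-loss and splice changes, the 3 highest and 3 lowest depths in O48, and the 10 nonsynonymous changes of highest mean share. Substitutions with a reference genotype in O48 and another genotype in DSM or DSMD were also named, as were all called ones. Genes named were table genes within 1 Mb, the 5 genes nearest in depth, and a centriole list. Others were named after their values were seen. Members and lists were chosen with earlier results of these data known. Codons and other copies were taken from GRCm38.p6 with blastn 2.17.0 and a scan of all 31-base runs. Simulated data with 200 of 10804 substitutions shifted by 30 points gave 81 recovered between O48 and DSM (6 of 6 with at least 200 reads) and 0 calls between O48 and DSMD, where none was shifted. The shift was larger than the differences called in Sfi1. The simulated counts had binomial spread only and no effect of genotype typing, so these numbers do not carry over to the Sfi1 calls. Python 3.11.15, pandas 2.3.3, scipy 1.17.1 and matplotlib 3.10.9 were used.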

Additional observations from a re-analysis of the deposited data

How the results depend on the processing

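The implied copy number stayed within its counting interval when the chromosome 11 sites were taken with a share of at least 80% in all lines or of at least 95%, from chromosomes 1 to 19, or whatever their share, and when coding positions, medians of exons or reference plus alternate reads were used. With means in place of medians it fell to 18.8 in O48, 18.6 in DSM and 18.2 in DSMD. The mean takes in the deep sites of id178949: without these, an alternative chosen after seeing the data, means gave 31.7, 33.3 and 32.0. Exons 22 to 33 alone, also chosen after seeing the data, gave 26.7, 29.5 and 28.0. The number is thus a summary of a gene with a step in depth, and not of a uniform block.

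All 4 substitutions called between lines kept their direction and their call under the 5 alternatives of the exact test. Adjusted p of the exact test was at most 5.3e-19. The alternatives reuse the same counts, those of 0 among them, and the sites lie far above the read minimums. This outcome was thus close to fixed beforehand and is no support for the calls. Shares over the listed depth and effects from the first listed transcript left their results in place. No paired analysis was possible because each line has 1 library. The copy number assumes that chromosome 11 is present in equal number in all cells. Reads cannot be assigned to single copies, and which copies carry both stops or neither cannot be read from counts per position.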

Other observations

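The table lists 9 substitutions in Pisd on chromosome 5, which encodes phosphatidylserine decarboxylase and overlaps the end of the Sfi1 copy there. Their depth ran from 18 to 90 reads in O48 at all but 1 of them, F313L, which had 175 reads in O48, 201 in DSM and 160 in DSMD. At R332*, the stop gain among them, the reference reads were 29, 34 and 28 and the alternate reads 55, 57 and 53. Over the 9 positions the median of the reference reads was 33 in O48, 33 in DSM and 28 in DSMD, close to the single-copy depth of chromosome 11.

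Of the 45 exonic bases in which the unplaced contig differs from chromosome 11 2 were not listed as substitutions of Sfi1. They lie at positions 3132216 and 3133166 of chromosome 11, in exons 32 and 30.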
